A study of Homo sapiens with 7 samples.

Results

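The 103 regions described here are sites of changed chromatin accessibility whose nearest gene belongs to a family of developmental transcription factors, among 8815 changed regions listed in all. They were chosen by gene symbol alone, from 19 families that include the homeobox, paired-box, SOX, forkhead (FOX), T-box, GATA, POU, basic helix-loop-helix, nuclear receptor NR2F and PRDM genes. The 103 regions carry 64 symbols of 17 families. Of the regions, 93 were assigned to 59 protein-coding factor genes and 10 to 5 noncoding symbols that match the name pattern, such as HAND2-AS1 and NR2F1-AS1. The LHX genes and the sine oculis homeobox genes had no listed region.

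Accessibility was measured by ATAC-seq, which tags open DNA with a transposase, in Kasumi-1, an established acute myeloid leukaemia line with the RUNX1-RUNX1T1 fusion. There were 3 libraries of cells in which PHF19 had been silenced by a lentiviral shRNA and 4 libraries of cells given a scrambled shRNA. In both groups puromycin at 2 µg/ml followed 48 hours after the shRNA and was kept for at least 24 hours, and a library started from 10000 cells. Separate cultures are not mentioned in the labels. The spread behind the deposited p-values is therefore that among the libraries at hand and could be technical.

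Single-region values come from the authors' deposited table, which gives each group's mean of normalised reads, a log2 fold of knockdown over control and a false discovery rate (FDR). No value per library is in that table, so values per sample, SDs and overlap between the libraries cannot be given. Of the 52675 regions that the deposited FDR implies were tested, 16.4% were listed as higher and 0.380% as lower in the knockdown. Regions that were tested and not listed were not analysed here, so the number of unchanged regions at these genes is unknown. The level of PHF19 cannot be read from accessibility. Marker levels cannot be read either, since only changed regions are listed. A changed region had its nearest gene among 5 of 8 markers of the line (CD34, KIT, RUNX1T1, RUNX1 and CD38) and among 1 of 10 markers of other cells (PPBP). The line's markers MPO, CD33 and ANPEP had none. Of all 20056 protein-coding genes, 25.2% had a higher region, and these marker counts do not test the identity of the cells. In these bulk libraries, more cells with an open site and more openness per cell cannot be told apart.

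As background, Polycomb repressive complex 2 (PRC2) places a repressive methyl mark on histone H3, and PHF19 is a Polycomb-like subunit that helps bring it to chromatin. Genes of developmental transcription factors are classic Polycomb targets in stem cells, where their promoters lie in broad CpG islands and are kept silent until a lineage needs them. The families also hold factors that blood cells or nearly all cells use, such as FOXO3, a forkhead factor restrained by AKT signalling that maintains blood stem cells.

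The promoters of 3 genes are shown as examples where the changed region covered the annotated start and the whole of the 250 bases before it. They belong to FOXO3, to PRDM15, a zinc-finger factor of mouse pluripotent cells, and to PRDM4, a zinc-finger factor of mouse neural stem cells. Sequences are from RefSeq on GRCh38.p14, at chr6:108559575-108559824 on the plus strand for FOXO3, chr21:41879345-41879594 on the minus strand for PRDM15 and chr12:107761138-107761387 on the minus strand for PRDM4. Capitals mark the GC box GGGCGG or its reverse complement CCGCCC.
FOXO3: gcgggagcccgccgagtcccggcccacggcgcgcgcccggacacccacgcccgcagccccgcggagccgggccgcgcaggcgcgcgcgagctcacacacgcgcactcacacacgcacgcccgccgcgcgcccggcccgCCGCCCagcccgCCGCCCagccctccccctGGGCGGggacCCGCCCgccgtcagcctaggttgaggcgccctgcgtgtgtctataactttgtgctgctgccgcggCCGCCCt
PRDM15: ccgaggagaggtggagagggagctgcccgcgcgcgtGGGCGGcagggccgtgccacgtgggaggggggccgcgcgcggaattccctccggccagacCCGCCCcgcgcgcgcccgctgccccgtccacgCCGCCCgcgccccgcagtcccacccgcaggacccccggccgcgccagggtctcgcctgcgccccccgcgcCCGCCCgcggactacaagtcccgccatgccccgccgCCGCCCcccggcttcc
PRDM4: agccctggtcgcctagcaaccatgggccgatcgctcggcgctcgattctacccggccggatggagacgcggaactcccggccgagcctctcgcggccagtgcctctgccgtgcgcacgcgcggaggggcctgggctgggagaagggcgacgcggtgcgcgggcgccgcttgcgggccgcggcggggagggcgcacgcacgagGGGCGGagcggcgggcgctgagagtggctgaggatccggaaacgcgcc
The FOXO3 and PRDM15 windows held 5 GC boxes each, and the PRDM4 window held 1. A GC box was present in 42.6% of all 35116 promoter entries of the same length. CCAAT (reverse complement ATTGG) and TATAAA (reverse complement TTTATA) were in none of the 3 windows, against 32.0% and 10.7% of all entries. The windows held 42 CpG dinucleotides in FOXO3, 41 in PRDM15 and 40 in PRDM4, against a median of 11 over all entries. Their GC content was 80.4% in FOXO3, 82.8% in PRDM15 and 76% in PRDM4, against a median of 58%. Protein-coding genes with a higher promoter region are a nearer reference, with a sequence for 3002 of 3517. Of these, 68.5% had a GC box, and their medians were 23 CpG dinucleotides and 65.6% GC. Of the 19 factor genes with a higher promoter region, 14 had a sequence. Their median was 29 CpG dinucleotides and their upper quartile 39.25, so the windows shown lie at the CpG-rich end. CCAAT was present in 3 of the 14 and TATAAA in 2. HOXA5 and TBX3 also had a region across the start and are not shown. Each match is a description of the letters, and 3 promoters do not stand for the families.

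Accessibility was higher in the knockdown at 99 of the 103 regions and lower at 4. Of all listed regions, 97.7% were higher and 2.27% lower, so the balance at the developmental factors was near that of the whole list. The median log2 fold of the 99 higher regions was 0.96, against 0.97 in the 8516 other higher regions. An absolute log2 fold of at least 1 was reached by 39 of the 103 regions (37.9%), against 43.3% of the other listed regions. An FDR of at most 0.01 was also reached by 39 regions (37.9%), against 45.2% of the others.

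The position of the regions differed from that of the rest of the list. Only 24 of the 103 regions (23.3%, exact Clopper-Pearson 95% interval 15.5 to 32.7%) lay at promoters, which the authors' annotation takes as within 3 kb of a transcription start. Among the 8712 other listed regions the promoter share was 50.0% (48.9 to 51.0%). Most of the factor regions, 60 of 103 (58.3%, 48.1 to 67.9%), were intergenic, against 26.5% of the others. Introns held 16 regions (15.5%, against 20.8%), and exons or untranslated regions held 3 (2.91%, against 2.73%). An intron or exon here can belong to a gene other than the one assigned. These intervals cover counting error alone, because regions that lie close together may change together.

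**Figure D1:**
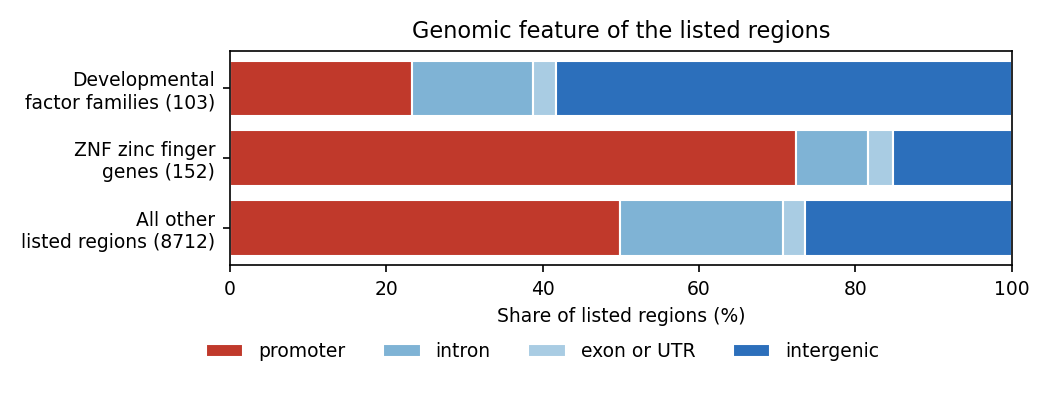
Share of listed regions (percent, x axis, stacked bars) in each genomic class for the developmental factor regions (103), all other listed regions (8712) and regions at ZNF genes (152). The ZNF regions are also counted among the other listed regions. Promoters hold 23.3% of the factor regions, against 50.0% of the others and 72.4% at ZNF genes, and intergenic sequence holds 58.3%, 26.5% and 15.1%.

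Distance to the start of the assigned gene gave the same contrast. A start was covered by 10 of the 103 regions (9.71%), against 34.3% of the other listed regions. Within 10 kb of a start lay 31.1% of the factor regions, against 56.9% of the others. More than 100 kb away lay 33 (32.0%), against 15.9%. Counting distal regions alone, 33 of 79 (41.8%) lay beyond 100 kb, against 1382 of 4360 (31.7%). Distal regions fell evenly on both sides, with 40 upstream and 39 downstream of the start. At these distances the assigned gene is the nearest one in the annotation, and whether a region acts on it was not tested.

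The ZNF genes, a large family of DNA-binding proteins that is named by a comparable symbol rule, lay at the other end. Of their 152 regions, 110 (72.4%, 64.5 to 79.3%) were at promoters and 53.9% covered a start. Only 6.58% lay more than 100 kb from a start. The ZNF regions are also counted among the other listed regions, so those sets are not separate. Their interval too covers counting error alone, and no test between the sets was made.

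Counted over genes, 233 protein-coding factor genes of the 19 families are in the RefSeq gene table. A higher region was assigned to 57 of them (24.5%), against 25.2% of all 20056 protein-coding genes. A higher promoter region was found at 19 (8.15%), against 17.5% of all protein-coding genes. Higher regions away from the promoter alone were found at 38 (16.3%), against 7.70%. A lower region was assigned to 4 genes (1.72%), against 0.818%. The share of factor genes with any higher region was thus near the background, and the share with a promoter region was below it. No listed region was assigned to 174 of the 233 genes.

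The promoter regions were divided unevenly within the families. A list of 43 family members that blood cells or most cell types use held 14 genes with a higher promoter region (32.6%), against 5 of the 190 other factor genes (2.63%) and 17.5% of all protein-coding genes. These 5 were ONECUT1, TBX3, IRX5, FOXD2 and SOX7. Counted over regions at protein-coding genes, 18 of 36 at the listed genes were promoters (50%, 32.9 to 67.1%), against 5 of 57 at the other factor genes (8.77%, 2.91 to 19.3%). The share at the listed genes was thus that of the other listed regions of the whole series (50.0%), and the share at the other factor genes was below it. Any higher region was found at 18 of the 43 genes (41.9%) and at 39 of the 190 (20.5%), against 25.2% of all protein-coding genes. The list was drawn up with results of these data known, so it describes the split and is not independent evidence of it.

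The forkhead family gave 7 genes with a higher promoter region, all but FOXD2 on the list of blood and ubiquitous genes. FOXP1, a repressor needed for B cell development in mouse, had 3 such regions, the largest with 22.3 reads in knockdown cells and 7.72 in control cells in the authors' deposited table (log2 fold 1.15, FDR 0.00456). FOXO3 had deposited means of 56.5 reads in knockdown cells and 26.7 in control cells across its start (log2 fold 0.92, FDR 0.00524). FOXJ3 had 38.3 reads in knockdown cells and 16.6 in control cells in that table (log2 fold 0.97). The other forkhead promoters, at FOXK1, FOXN2, FOXN3 and FOXD2, had deposited log2 folds between 0.59 and 0.86. FOXN2 was the most accessible of all 24 promoter regions, with 119.7 reads in knockdown cells and 76.6 in control cells, and its fold was the smallest of the 99 higher regions.

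The PRDM genes encode proteins with a histone methyltransferase-like domain, most of them with zinc fingers. They had promoter regions at PRDM15, PRDM11, PRDM4 and PRDM2. In the authors' deposited table PRDM15 had 29.4 reads in knockdown cells and 11.1 in control cells (log2 fold 1.12, FDR 0.00274). PRDM11 had deposited means of 44.0 in knockdown cells and 19.9 in control cells (log2 fold 0.94), and PRDM4 had 45.8 in knockdown cells and 23.2 in control cells (log2 fold 0.81). PRDM2, also called RIZ, had a deposited log2 fold of 0.74. PRDM1, the repressor that drives plasma cell differentiation, had a distal region and no promoter region, with a deposited log2 fold of 0.97 at 18.7 kb.

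Promoter regions of the other listed blood and ubiquitous genes were at POU2F1, SOX6, PAX5 and HOXA5. POU2F1, the broadly expressed octamer-binding factor Oct-1, had a region on either side of 1 start, with deposited log2 folds of 0.96 upstream and 0.81 downstream. SOX6, which acts in red cell and cartilage differentiation, had 15.5 reads in knockdown cells and 5.06 in control cells in the authors' deposited table (log2 fold 1.06). PAX5, the B cell commitment factor, had deposited means of 105.7 in knockdown cells and 60.5 in control cells (log2 fold 0.73). That region is placed 1.02 kb upstream of the start of a 23.9-kb transcript, whereas the RefSeq gene spans 201.0 kb, so the start is that of a short transcript. The transcripts behind several other promoter regions were also shorter than the RefSeq gene, among them those of PRDM2 (31.5 kb, against 124.9 kb), SOX6 (295.5 kb, against 772.0 kb), PRDM11 (77.7 kb, against 141.0 kb) and FOXN3 (260.9 kb, against 463.0 kb). The same held for IRX5, ONECUT1, NR2F1-AS1 and 1 of the 3 FOXP1 regions, so these are not shown to be the outermost starts.

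The HOX genes, which pattern the body axis and are active in early blood progenitors, had 2 regions, at 2 of 39 genes. A higher region was thus assigned to 5.13% of HOX genes, against 25.2% of all protein-coding genes. HOXA5, on chromosome 7 at 27182596 to 27183647, had 88.1 reads in knockdown cells and 43.2 in control cells in the authors' deposited table (log2 fold 0.93, FDR 0.000284), across its start. That FDR is the lowest of the 24 promoter regions. HOXD11 had a weak region 3.82 kb from its start, with 7.68 reads in knockdown cells and 1.83 in control cells (log2 fold 0.93, FDR 0.0489).

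Outside the blood and ubiquitous list, ONECUT1, a factor of liver and pancreas development, had the largest fold of the 24 promoter regions. It had deposited means of 14.1 reads in knockdown cells and 3.98 in control cells (log2 fold 1.19, FDR 0.00781), across the start of a 23.9-kb transcript. TBX3, a T-box repressor of limb and heart development, had 74.0 reads in knockdown cells and 37.4 in control cells in the authors' deposited table (log2 fold 0.85, FDR 0.0035). IRX5, an Iroquois homeobox factor of heart and retina, and FOXD2 had deposited log2 folds of 0.79 and 0.66. SOX7, an endothelial factor, had a deposited log2 fold of 0.61, but the transcript used spans 116.0 kb, whereas the RefSeq gene spans 6.74 kb. The start behind the SOX7 assignment is thus not shown to be that of SOX7 itself. The transcript behind the FOXK1 promoter region was also longer than the RefSeq gene (127.7 kb, against 89.1 kb). So was that of FOXD2 (4.675 kb, against 2.648 kb).

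**Figure D2:**
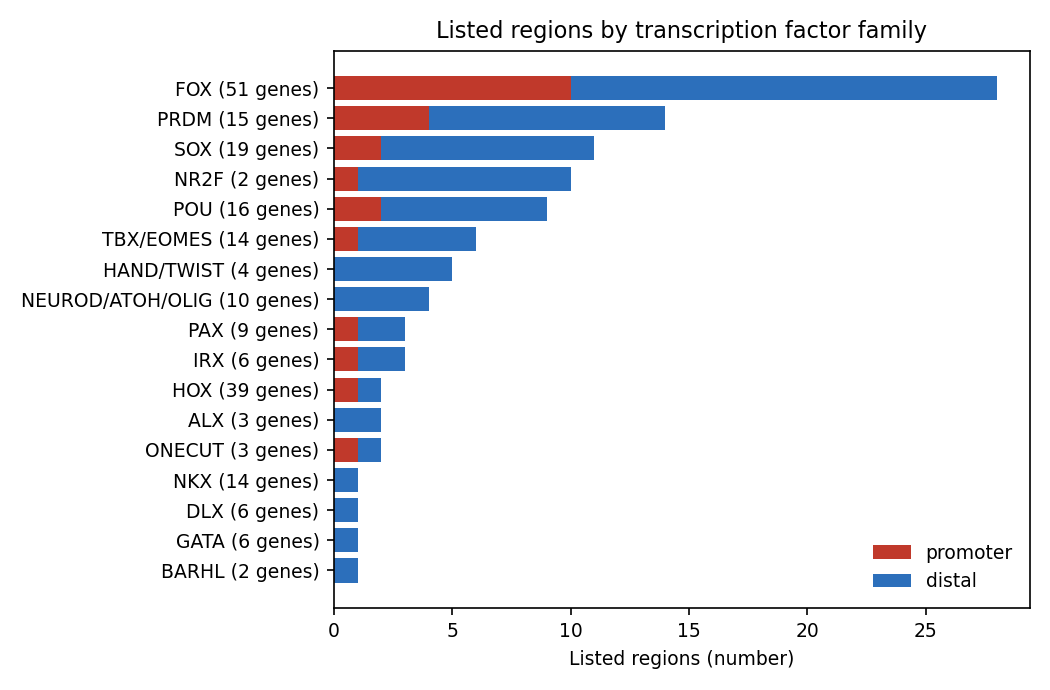
Number of listed regions (x axis) per transcription factor family, split into promoter and distal regions. FOX has 10 promoter and 18 distal regions, PRDM 4 and 10, SOX 2 and 9, NR2F 1 and 9, and the HAND and TWIST genes 0 and 5.

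By family, 10 of the 17 families with a region had a promoter region, and all 17 had a distal one. FOX and PRDM genes together held 14 of the 24 promoter regions (58.3%) and 28 of the 79 distal regions (35.4%). FOX had 28 regions, 10 at promoters, at 15 of its 51 genes. PRDM had 14 regions, 4 at promoters, at 8 of 15 genes. SOX had 11 regions, 2 at promoters, at 7 of 19 genes, and POU had 9, with 2 at promoters, at 5 of 16 genes. A higher region was assigned to 29.4% of FOX, 53.3% of PRDM, 36.8% of SOX and 31.25% of POU genes. Of all protein-coding genes, 25.2% had one. NR2F, counting the antisense symbol NR2F1-AS1, had 10 regions with 1 at a promoter. The T-box genes with EOMES had 6 regions with 1 at a promoter. The HAND and TWIST genes, regulators of heart, limb and mesenchyme, had 5 regions and the NEUROD, ATOH and OLIG genes, regulators of neurons and glia, had 4, all distal. The ALX, NKX, DLX, GATA and BARHL families had distal regions alone, from 1 to 2 each. With so few regions per family, no order among the families is read from these counts.

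By the deposited fold, the 3 leading genes among distal regions were EOMES, NR2F2 and PRDM13. By the difference of the log2 group means the order changed, and PRDM13 (1.89) came below NR2F1-AS1, NEUROD1, POU1F1, HAND2-AS1 and TWIST1, whose largest values lay between 2.12 and 2.77. FOXI2, FOXP1, HOXD11, PAX3, SOX9 and FOXN3 also came above PRDM13, with largest values between 1.92 and 2.09. EOMES, a T-box factor of mesendoderm and of cytotoxic lymphocytes, had 28.3 reads in knockdown cells and 5.12 in control cells in the authors' deposited table (log2 fold 1.83, FDR 1.67e-05), at 254.2 kb upstream on chromosome 3, 28018389 to 28018789. That was the largest deposited fold of the 103 regions. By the difference of the log2 group means, EOMES (2.47) came after a region of NR2F2 (2.87) and one of NR2F1-AS1 (2.77). The other EOMES regions, at 48.6 and 83.0 kb downstream, had deposited log2 folds of 1.53 and 1.18, so all 3 were above 1 and no EOMES region lay at its promoter.

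NR2F2, the nuclear receptor COUP-TFII of veins and mesenchyme, had 4 upstream regions and 1 downstream region. The largest had 25.4 reads in knockdown cells and 5.33 in control cells in the authors' deposited table (log2 fold 1.68), at 282.7 kb upstream. A neighbour at 267.1 kb upstream had 10.5 reads in knockdown cells and 1.43 in control cells (log2 fold 1.38, FDR 0.00395). The other 3 NR2F2 regions had deposited log2 folds between 0.82 and 0.95. NR2F1-AS1, the antisense neighbour of the related receptor NR2F1, had 5 regions with deposited log2 folds between 0.85 and 1.16. Of these, 3 lay 963.8 to 1108 kb from the start assigned to them. Another lay beside a second start, 17.8 kb from the first, with deposited means of 19.3 in knockdown cells and 8.74 in control cells. The promoter region of NR2F1-AS1 is counted among the 24, and no region carried the symbol NR2F1 itself.

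PRDM13, a factor that specifies inhibitory interneurons in the mouse spinal cord, had 2 neighbouring regions in exons or untranslated sequence at 6.63 and 7.76 kb from the start. The farther had 42.9 reads in knockdown cells and 11.6 in control cells in the authors' deposited table, with a log2 fold of 1.55 and an FDR of 9.85e-06, the lowest of the 103. The nearer had deposited means of 42.8 in knockdown cells and 15.7 in control cells (log2 fold 1.21). Both had more reads than most distal regions, whose median was 16.8 in knockdown cells.

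TWIST1, a factor of mesenchyme, had 17.3 reads in knockdown cells and 3.96 in control cells in the authors' deposited table (log2 fold 1.42), at 65.5 kb. PAX3, a factor of neural crest and muscle precursors, had deposited means of 16.9 in knockdown cells and 4.27 in control cells (log2 fold 1.35). FOXN3, a forkhead repressor, had a region in an intron 251.4 kb from its start with 25.8 reads in knockdown cells and 6.84 in control cells in that table (log2 fold 1.46). FOXI2 and SOX6 completed the 10 largest deposited folds at distal sites, each with a deposited log2 fold of 1.27.

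At the distal regions of further family genes the deposited folds were of like size. NEUROD1, a factor of neurons and pancreatic islets, had 2 upstream regions with log2 folds of 1.14 and 1.21. HAND2, a factor of heart and limb, had 2 downstream regions with log2 folds of 0.94 and 1.16, and HAND2-AS1 had 2 farther ones with 0.97 and 1.26. TBX18, a factor of the epicardium, had 2 regions with log2 folds of 0.87 and 1.25. POU1F1, the pituitary factor Pit-1, had 3 with log2 folds between 0.96 and 1.20. PRDM9, which sets recombination hotspots in the germ line, had 3 regions 298.3 kb or more from its start, the largest with a log2 fold of 1.24.

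The remaining SOX regions were all distal and higher. SOX9, the factor of cartilage and testis, had a region 90.1 kb upstream with 43.8 reads in knockdown cells and 21.7 in control cells in the authors' deposited table (log2 fold 0.85, FDR 0.00863), and a weaker one 670.6 kb upstream (log2 fold 0.96). SOX2, the factor of pluripotent and neural stem cells, had deposited means of 25.6 in knockdown cells and 11.5 in control cells at 11.1 kb upstream (log2 fold 0.92). SOX17, a factor of endoderm and endothelium, had deposited means of 8.74 in knockdown cells and 2.38 in control cells. SOX11, a factor of neurons, and SOX3, a factor of neural progenitors, had deposited log2 folds of 0.74 and 0.85.

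Several forkhead genes outside the blood and ubiquitous list likewise had distal regions. FOXA1, which opens chromatin in endoderm and breast, had 21.1 reads in knockdown cells and 6.53 in control cells in the authors' deposited table (log2 fold 1.21, FDR 0.00384), at 279.5 kb upstream. FOXL2, a factor of the ovary, had the most reads of any distal region, with deposited means of 65.2 in knockdown cells and 35.7 in control cells (log2 fold 0.75). FOXP2, a factor of brain circuits used in speech, and FOXB1 had deposited log2 folds of 1.08 and 0.73.

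Neural and patterning factors of the other families gave like values. POU3F2, a neuronal POU factor, had 22.4 reads in knockdown cells and 8.59 in control cells in the authors' deposited table (log2 fold 1.05), and POU3F4, a factor of the inner ear, had a deposited log2 fold of 0.85. OLIG1, a factor of oligodendrocytes, had deposited means of 31.7 in knockdown cells and 14.3 in control cells (log2 fold 0.95), and ATOH1, a factor of hair cells and cerebellar granule cells, had 8.52 in knockdown cells and 2.34 in control cells (log2 fold 0.97). ALX1, a factor of facial mesenchyme, had regions 144.5 and 189.0 kb downstream, the farther with a deposited log2 fold of 1.13. GATA4, a factor of heart and endoderm and the sole GATA gene with a region, had 10.1 reads in knockdown cells and 3.08 in control cells in that table (log2 fold 0.92), and its FDR of 0.0499 was the highest of the 103. IRX2 and IRX4 had deposited log2 folds of 0.94 and 0.84, DLX2 of 0.81, BARHL1 of 1.01 and NKX2-6 of 0.98.

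**Figure D3:**
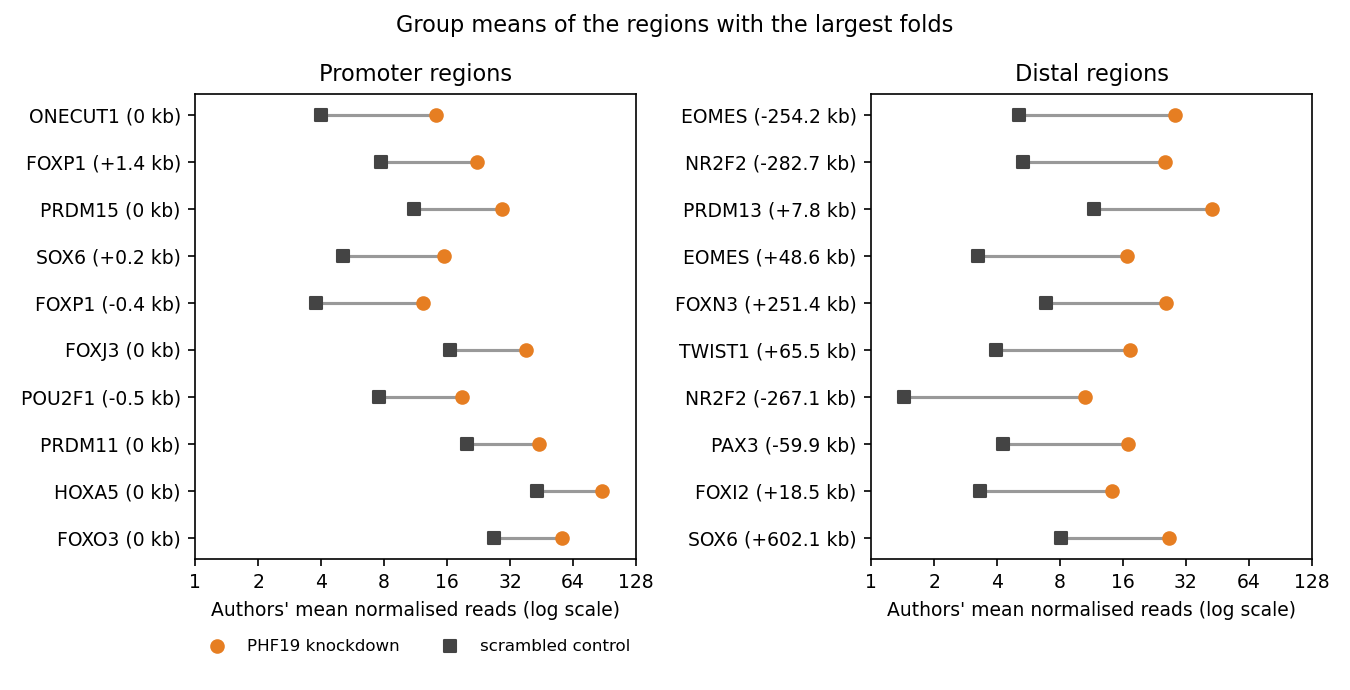
Authors' mean normalised reads (x axis, log scale) in PHF19 knockdown (circles) and scrambled control (squares) for the 10 promoter and the 10 distal regions with the largest deposited log2 folds, named by gene and signed distance to the start. In all 20 the knockdown mean is the higher, with distal EOMES at 28.3 against 5.12 reads and promoter ONECUT1 at 14.1 against 3.98.

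Promoter and distal regions are set side by side here in fold and in level. Among the higher regions, the median log2 fold was 0.86 at 23 promoter regions and 0.98 at 76 distal ones. The other listed regions had medians of 0.89 at promoters and 1.03 at distal sites, so the same order held throughout the list. A log2 fold of at least 1 was reached by 4 of 23 promoter regions (17.4%), against 30.8% of other promoter regions, and by 32 of 76 distal regions (42.1%), against 56.3% of other distal regions. The median mean of normalised reads in knockdown cells was 41.0 at promoter and 16.8 at distal regions. In control cells it was 19.9 at promoter and 5.88 at distal regions. Where the log2 fold was 1 or more in size, the control medians lay closer, with 6.39 at promoter and 5.03 at distal regions. With no limit on the fold, the control medians of the other higher regions were 22.9 at promoter and 5.41 at distal regions. Under 10 control reads were counted at 58 of the 76 distal regions (76.3%), against 77.0% of other distal regions, and at 7 of the 23 promoter regions (30.4%), against 16.4% of other promoter regions. In all 103 regions the deposited fold was smaller in size than the log2 difference between group means, which had medians of 1.08 at promoter and 1.54 at distal regions. The smallest absolute log2 fold of all listed regions was 0.586, at FOXN2. Whether the list also carried a limit on the fold is not given in the sources used here. Since regions entered the list by a threshold on these same values, folds and levels are given as a description.

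**Figure D4:**
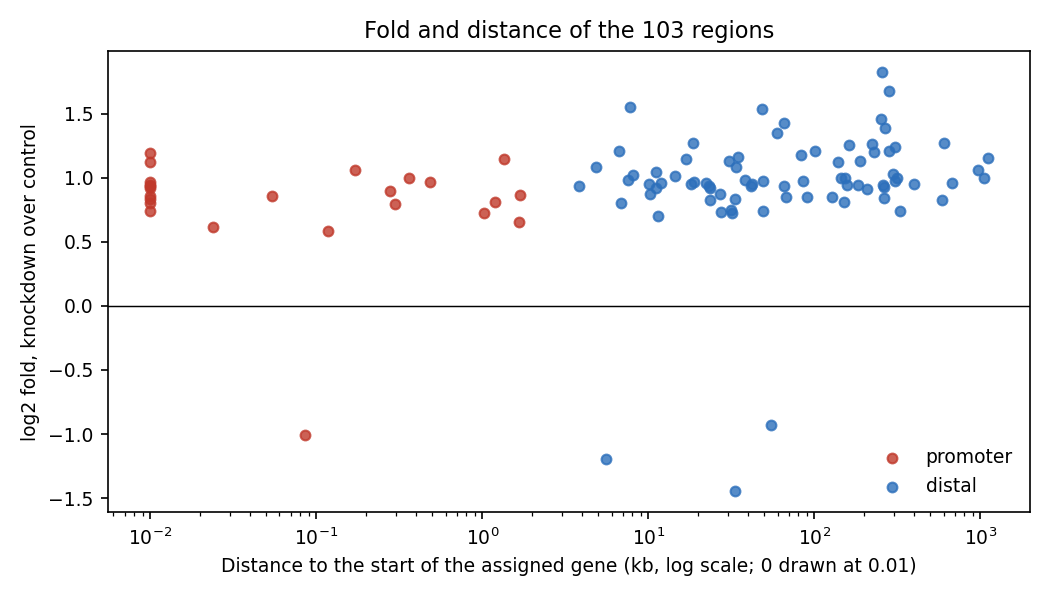
Deposited log2 fold of knockdown over control (y axis) of the 103 regions against distance to the start of the assigned gene (x axis, kb, log scale, with 0 drawn at 0.01). Promoter regions sit between 0.59 and 1.19 apart from FOXK2 at -1.01, while distal regions reach 1.83 at EOMES.

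The 4 lower regions were at PRDM11, ONECUT3, FOXK2 and PAX7. A region in an intron of PRDM11, 33.2 kb from the start, had 5.25 reads in knockdown cells and 22.7 in control cells in the authors' deposited table (log2 fold -1.45, FDR 0.000971). ONECUT3 had deposited means of 4.36 in knockdown cells and 16.9 in control cells at 5.55 kb upstream (log2 fold -1.19). FOXK2, a broadly expressed forkhead factor, had 13.9 reads in knockdown cells and 35.1 in control cells in that table (log2 fold -1.01, FDR 0.00552). PAX7, a factor of muscle stem cells, had deposited means of 1.81 in knockdown cells and 8.03 in control cells (log2 fold -0.93, FDR 0.0496).

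PRDM11 and FOXK2 also had higher regions. At PRDM11 the promoter region was higher (deposited log2 fold 0.94), while the intronic site 33.2 kb from the same start was lower. A further higher site (deposited log2 fold 0.87) lay 10.2 kb upstream of another PRDM11 start, which is 53.3 kb from the first. At FOXK2 a site 22.2 kb upstream was higher, with 53.3 reads in knockdown cells in the authors' deposited table (log2 fold 0.95). The lower FOXK2 region lay beside the start of an 11.2-kb transcript, 73.7 kb from the start used for the upstream site, so it is the promoter of a short transcript and not the outermost one.

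Of the 64 symbols, 9 had 3 or more regions and held 36 of the 103. FOXP1 had the most, with 7 regions on chromosome 3 assigned to 6 starts that spread over 542.2 kb. Its 3 promoter regions had deposited log2 folds of 0.90, 0.99 and 1.15, and its 4 intronic ones lay between 0.74 and 1.13. The intronic site at 49.1 kb had 53.3 reads in knockdown cells and 29.1 in control cells in the authors' deposited table, more than any of the 3 promoter sites, whose knockdown means lay between 12.3 and 23.6. SOX6 had 4 regions, of which 2 lay 582.8 and 602.1 kb away. All regions of 8 of these 9 genes were higher in the knockdown, and PRDM11 was the exception.

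**Figure D5:**
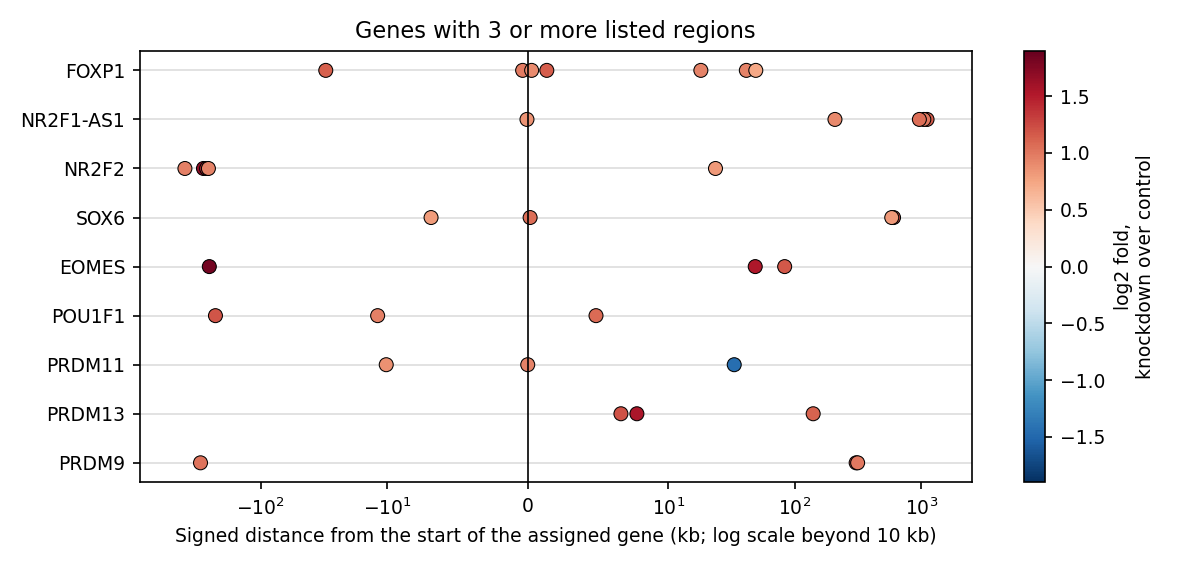
Regions of the 9 symbols with 3 or more regions, by signed distance from the start assigned to each region, which can differ within a gene (x axis, kb, log scale beyond 10 kb) and coloured by deposited log2 fold. FOXP1, SOX6, PRDM11 and NR2F1-AS1 have regions at or beside a start, the others have distal ones only, and the single lower region is at PRDM11.

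Chromosome 7 held 7 of the 103 regions (6.80%), against 11.9% of the other listed regions. Among them were the regions at HOXA5, TWIST1 and FOXP2 and both regions at FOXK1. Mean reads over all libraries were under 10 at 40 of the 103 regions (38.8%), against 27.7% of the other regions, so a larger part of the factor regions rests on few reads.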

How the data were processed

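ATAC-seq libraries of Kasumi-1 cells, 3 with PHF19 knockdown and 4 with a scrambled shRNA, were analysed from a pair of lists of changed regions. Per the file headers, the authors deposited for each region the log2 mean of normalised reads over all libraries and per group, a log2 fold, a p-value, an FDR, the nearest gene and the signed distance to its start. MACS2 2.2.6, deepTools 1.5.12, Picard 2.2.4, Bowtie2 2.4.1 and the build hg38 are named per the submitters' processing notes. Not given in the sources used here are what each tool did, how reads were normalised, whether reads were shifted for the transposase cut and what computed the folds, and the balance of higher and lower regions can depend on the normalisation. Read depth per library is unknown, so no interval on a region's reads is given.

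Group columns were matched by content: the mean over all libraries had a median weight of 0.429 on the knockdown column, within 0.001 of 3 in 7 for 98.5% of regions, and that column was higher in all 8615 increased and lower in all 200 decreased regions. Per-sample columns without a sample numbered 0. No gene start of the 103 regions equalled that of GRCh38.p14 and listed regions ran past the last RefSeq gene on 13 chromosomes, so coordinates are as deposited, 1-based, and read as hg19.

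Log2 means were turned back to reads. Regions were matched by symbol pattern, classed as promoter (authors' annotation, within 3 kb) or distal, and counted, with no test of a set. The self-test on simulated lists checked the counting. Factor genes are protein-coding RefSeq genes matching the pattern, less 5 that encode no such factor. Promoter sequences were taken where the region covered the start and the deposited and RefSeq gene lengths differed by at most 100 bp. HOXA5 and TBX3 also met this. Base composition was not compared between groups of factor genes, since fewer than 80% of the genes in each had a sequence. Genes were named by fixed rules: the 10 largest folds at promoters and at distal sites, all lower regions, genes with 3 or more regions, the leading regions of each larger family, the blood and ubiquitous list and the HOX genes. Other regions named were chosen after their values were seen. Values of a few single genes are not reported here, though counts include them. Members, lists and rules were chosen with earlier results of these data known. Alternatives varied the member rule, promoter distance, fold, FDR, read minimum, chromosome 7, distance and counting unit. Figures were drawn with matplotlib 3.10.9, and values computed with scipy 1.17.1, numpy 2.4.6 and pandas 2.3.3 under Python 3.11.15.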

Additional observations from a re-analysis of the deposited data

How the results depend on the processing

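Over 10 settings and 19 results, 101 of 131 alternative values stayed within the allowed spread and 30 moved further. The allowed spread was a fixed ratio for counts and the main interval for shares and medians. For differences it came from the interval of the first term alone. A reversal could be recorded only for differences, and none of these changed sign. Keeping regions whose log2 fold was 1 or more in size, 36 regions were higher, promoters held 12.8% of the factor regions and 35.7% of the others, 4 families and 4 factor genes had a promoter region and 17 genes distal regions only. Median log2 folds were then 1.14 at promoters and 1.20 at distal regions, and the median control mean at promoters was 6.39 reads, 1.36 above that of distal regions. At an FDR of at most 0.01, 36 regions were higher, other regions were 59.6% at promoters, 6 families had a promoter and 11 a distal region, 10 genes had a promoter region and 19 distal regions only, the distal median log2 fold was 1.23 and promoters minus distal was -0.29. With at least 10 reads, 60 regions were higher, promoters held 33.3% and 64.8% (factor, other regions), and the distal control median was 9.19 reads. Within 100 kb the promoter shares were 34.3% and 59.4%, and with the gene as the unit 32.8% and 64.9%. With promoters within 1 kb the share of other regions was 46.6%. With the difference of group means, median log2 values were 1.08 at promoters and 1.54 at distal regions, a difference of -0.46. The promoter share was lower at the factor regions than at the others under the limits on fold, FDR, reads, distance and promoter width and with the gene as the unit; it was not computed for the difference of group means. Leaving out FOXP1 and the blood and ubiquitous list were chosen after seeing the data. No paired analysis was possible because the lists hold group means and no value per library, and leaving out single libraries was not run for the same reason.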
